A study of Homo sapiens with 6 samples.

Results

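The 30 genes that encode subunits of human SWI/SNF chromatin remodelling complexes were examined in a list of regions bound by SMARCA4 in K562 cells, an established human chronic myelogenous leukaemia line. The genes were chosen by name, from the known composition of the complexes, out of 19802 protein-coding genes. Earlier results of these data were known when they were chosen. A gene window was the annotated span of the gene plus 5 kb on each side, and 105 of the 28265 peaks of the list overlapped the windows of the 30 genes. SMARCA4 is itself a subunit, so the list shows where a remodelling ATPase was found at the genes for its own partners.

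The experiment had 1 condition, with 3 libraries from chromatin immunoprecipitated with an antibody to SMARCA4 (SMARCA4 ChIP) and 3 input libraries with no antibody step, all from untreated K562 cells. Crosslinking took 30 min in disuccinimidyl glutarate (2 mM) and then 10 min in formaldehyde (1%), and chromatin was sheared to fragments of 150 to 400 bp. Group labels follow the sample titles, because the deposited descriptions name G4 ChIP-seq for the SMARCA4 samples, and they call the replicates technical and count 1 input, whereas the study's results call the replicates biological, so a spread between them might be technical only. The list holds the regions found in at least 2 of the 3 ChIP replicates, as positions on the genome without any measure of signal, so no value below has a spread between replicates and no difference could be set against replicate error.

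SWI/SNF complexes use the energy of ATP to slide or eject nucleosomes, which opens promoters and enhancers to other factors. Each complex is built around 1 ATPase, SMARCA4 or its paralogue SMARCA2, and 3 assemblies are distinguished by their other subunits: canonical BAF, PBAF (polybromo-associated) and the non-canonical ncBAF. Several positions can be filled by any of a few paralogues, some of which are known mainly from neurons, heart and skeletal muscle, or T cells. G-quadruplexes (G4s) are folds of guanine-rich DNA, and the study asked how SMARCA4 binding relates to them.

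The sequences below are G4 motifs of subunit gene promoters, shown because the promoter peaks differ widely in how many they hold. A G4 motif was defined by sequence alone, as 4 runs of at least 3 G on the same strand with 1 to 7 bases between neighbouring runs, where a G may itself be a loop base so that a run of 7 or more G can count as 2, and says nothing of whether the fold forms in the cell. Sequences are from hg19, written 5′ to 3′ on the strand of the G runs, with the runs of each motif in capitals. The only motif of the SMARCA4 promoter peak lies in the 5′ UTR of SMARCA4. The ARID1A stretch holds 4 motifs directly upstream of the main start, inside the promoter peak, and its first 15 bases recur as a motif upstream of ARID2. The PBRM1 motifs are the 4 of its single promoter peak, and the BICRAL stretch holds 3 of the 7 motifs of a peak in intron 1 of that gene. The ARID1B motif, 1 of 5 in its promoter peaks, is 4 runs of 4 G with the same loop each time.
SMARCA4, chr19:11072068-11072088, plus strand: GGGGtGGGtGGGGGGcccGGG
ARID1A, chr1:27022416-27022503, minus strand: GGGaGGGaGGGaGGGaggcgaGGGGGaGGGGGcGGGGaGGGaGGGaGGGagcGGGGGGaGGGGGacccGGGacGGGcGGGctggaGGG
ARID2, chr12:46123432-46123446, minus strand: GGGaGGGaGGGaGGG
ARID1B, chr6:157098340-157098361, minus strand: GGGGccGGGGccGGGGccGGGG
PBRM1, chr3:52719634-52719656, minus strand: GGGGacgcgcGGGtcGGGccGGG
PBRM1, chr3:52719686-52719702, minus strand: GGGcccGGGcGGGcGGG
PBRM1, chr3:52719743-52719766, minus strand: GGGtaaggccGGGcccaGGGcGGG
PBRM1, chr3:52719890-52719912, minus strand: GGGaGGGGtaaGGGaggtgaGGG
BICRAL, chr6:42750337-42750512, plus strand: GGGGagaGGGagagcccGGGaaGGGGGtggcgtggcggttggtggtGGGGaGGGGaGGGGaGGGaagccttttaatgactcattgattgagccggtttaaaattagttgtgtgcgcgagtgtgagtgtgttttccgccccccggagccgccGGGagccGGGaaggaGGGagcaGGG

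Nearly all subunit genes had a SMARCA4 peak at a promoter. A promoter peak, meaning a peak that overlapped by at least 1 bp the window of 1 kb on either side of any protein-coding start of the gene, was present at 28 of the 30 genes (93.3%, 95% Wilson interval 78.7 to 98.2%), and at 46.8% of all coding genes. All 30 main starts, taken from the Ensembl canonical transcript, lay in CpG-rich sequence (a CpG ratio of at least 0.6 and at least 50% GC in the 500 bp on either side), as did those of 64.7% of all coding genes, and 63.3% of CpG-rich coding genes had a promoter peak. The genes without one were DPF3 and BCL11B. Intervals given here cover counting error only, and those over peaks treat peaks of the same gene as independent. Since the genes were chosen by name, with earlier results of these data known, they are compared with the other genes by counts and not by a test.

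The peaks mostly sat on the main start itself. A peak was within 1 kb of the main start at 28 of the 30 genes, against 44.3% of coding genes, and it covered that base at 25, against 34.4%. Over CpG-rich coding genes these shares were 61.5 and 49.1%. Of the other genes with a promoter peak, SMARCB1 had it 159 bp and BCL7A 544 bp downstream of the main start, and ACTL6A 343 bp upstream. More than 1 promoter peak was found at 14 of the 30 genes (46.7%, interval 30.2 to 63.9%), against 15.6% of coding genes and 21.4% of CpG-rich ones. Among genes with any promoter peak this was 14 of 28 subunit genes (50%, interval 32.6 to 67.4%) and 33.3% of coding genes. With peaks up to 500 bp apart merged, the 28 genes had 36 promoter peaks in place of 53. Fewer genes then have more than 1, and this count was not repeated on merged peaks. At the other end, 10 subunit genes had exactly 1 peak in the whole window, and 12 had promoter peaks and no other. Counting the whole window, 29 of the 30 genes had a peak, against 59.4% of coding genes and 73.1% of CpG-rich ones, and BCL11B was the exception.

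**Figure D1:**
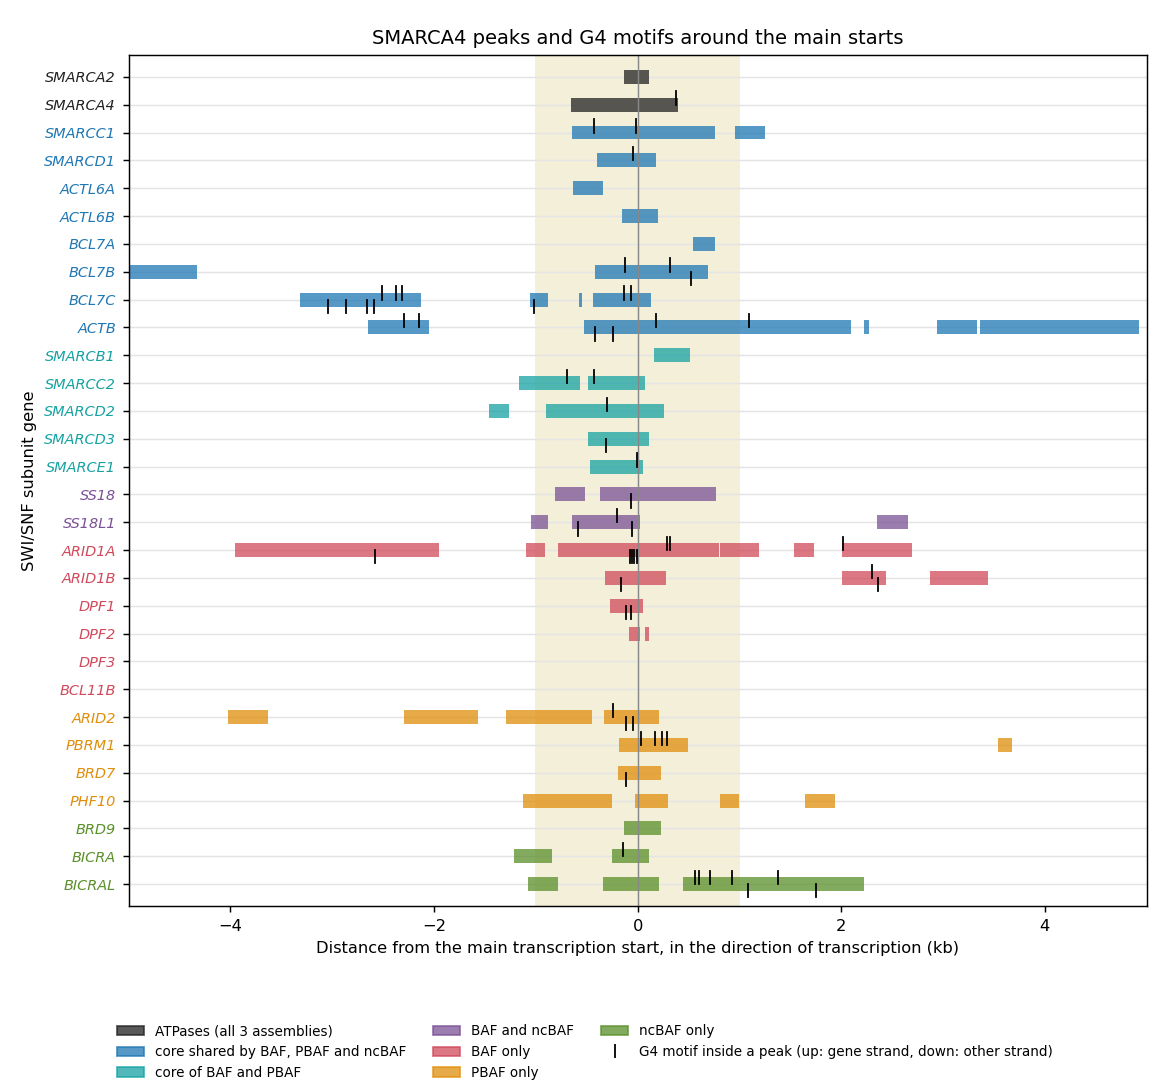
SMARCA4 peaks (bars, coloured by subunit class) within 5 kb of the main start of each of the 30 genes, in kb in the direction of transcription, with ticks for the G4 motifs inside peaks and shading for 1 kb on either side of the start. Peaks cover the start in 25 genes, none lies in the shaded zone of DPF3 and BCL11B, and bars that reach the edge of the plot run on beyond it.

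Split by assembly, the promoter counts were complete for PBAF and ncBAF, though not under every setting. With shared subunits counted in every assembly they join, a promoter peak was present at 21 of 23 BAF genes (91.3%, interval 73.2 to 97.6%), 19 of 19 PBAF genes (interval 83.2 to 100%) and 15 of 15 ncBAF genes (interval 79.6 to 100%). These intervals overlap, the assemblies share most of their genes, and both genes without a promoter peak belong to the BAF-only class. With 500 bp on either side, with 1 kb upstream only or with the start of the longest coding sequence, BCL7A, which is in all 3 assemblies, also had no promoter peak, and with 1 kb upstream only neither did SMARCB1 of BAF and PBAF. The BAF-only genes DPF1 and DPF2 lost theirs with the start of the longest coding sequence and with peaks of at least 200 bp, respectively. An intronic peak was found at 8 of 23 BAF genes (interval 18.8 to 55.1%), 6 of 19 PBAF genes (15.4 to 54%) and 6 of 15 ncBAF genes (19.8 to 64.3%). All 3 intervals hold the 21% of all coding genes. ACTB and BCL7C, counted in all 3 assemblies, had no peak in an intron of the canonical transcript. The median width of promoter peaks was 414 bp for BAF, 474 bp for PBAF and 362 bp for ncBAF genes. A G4 motif was held by 52.5% of the 40 BAF promoter peaks (interval 37.5 to 67.1%), 50% of the 32 PBAF peaks (33.6 to 66.4%) and 42.9% of the 28 ncBAF peaks (26.5 to 60.9%), which are not separated by their intervals.

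The ATPase genes each carried a single peak, at the promoter, and no other in windows of over 100 kb. At SMARCA4, the ATPase that the antibody recognises, the peak spanned chr19:11071048-11072105, was 1058 bp wide with 75.3% GC, and covered 12 of the 30 annotated coding starts. Its width was at the 90.9th percentile of all coding promoter peaks. At SMARCA2 the peak was 246 bp wide (24.8th percentile), with 57.3% GC and no G4 motif, although 2 motifs lay within 1 kb of its main start. The SMARCA2 peak thus covered the start but left out the motifs beside it, whereas the only motif near the SMARCA4 start was inside the peak.

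The promoter peaks of the core of BAF and PBAF had a median of 555 bp over 7 peaks, and those of the core shared by all 3 assemblies 332 bp over 16. By the widest promoter peak of each gene the medians of these classes were 591 and 580 bp, so no order by width is given. SMARCC1 and SMARCC2 encode the paired scaffold proteins on which the complex is assembled. SMARCC1 had a peak of 1406 bp over its start with 2 motifs, a second of 297 bp in intron 1, and a peak of 672 bp in intron 2, 19467 bp from the start. SMARCC2 had peaks of 555 and 591 bp, each with 1 motif, and 4 more peaks in its flank that all lay at the start of MYL6, a myosin light chain gene. Both scaffold genes therefore had more than 1 promoter peak and 2 motifs, and their other peaks differed in place.

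The SMARCD genes encode a family of alternative subunits that link the complex to transcription factors. SMARCD1 had 1 peak of 584 bp, SMARCD2 had peaks of 1165 and 191 bp, and SMARCD3, known mainly from heart and muscle, had 1 peak of 595 bp. Each of the 3 paralogues had 1 motif in its promoter peaks, on the gene strand at SMARCD1 and SMARCD2 and on the other strand at SMARCD3. SMARCE1, a DNA-binding subunit with an HMG domain, had a peak of 529 bp over 14 of its 20 starts, with 1 motif that spans the main start. SMARCB1, which contacts the nucleosome surface and is lost in rhabdoid tumours, stood apart from them with a peak of 357 bp (72.5% GC) in intron 1, beside the start, and no motif. SMARCB1, SMARCC2, SMARCD2, SMARCD3 and SMARCE1, the 5 genes of the core of BAF and PBAF, had no intronic peak outside their promoter windows.

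Among the actin-related subunits the counts ranged from 1 peak to 12. ACTL6A, which is present in most cell types, had 1 peak of 296 bp with 31.8% GC, the lowest GC content of the 53 subunit promoter peaks, and its neuronal counterpart ACTL6B had a peak of 357 bp with 70.9% GC over its start. ACTL6B also had a peak of 661 bp with 2 motifs in its flank, at the start of TFR2, the gene for transferrin receptor 2. ACTB, which encodes the actin of the cytoskeleton as well as the actin of the complex, had 6 promoter and 5 intronic peaks. It had the widest promoter peak of the set, with 2620 bp (99.7th percentile), and only this one covered the main start. The other promoter peaks of ACTB were counted through other annotated starts. Their centres lay at 2249, 3135, 4145, -32180 and -33221 bp from the main start. The annotated ACTB span of 37.5 kb includes distant upstream starts, so all 5 peaks counted as intronic lay upstream of the main start, with centres from -2351 to -28359 bp.

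The BCL7 proteins are small subunits of the ATPase module. BCL7A had the narrowest coverage of the family, with 1 promoter peak of 214 bp, BCL7B had a promoter peak of 1111 bp with 3 motifs, and BCL7C had promoter peaks of 576, 36 and 179 bp with 3 motifs in all. BCL7C also had 4 intronic peaks, none of them in an intron of the canonical transcript, and a flank peak of 1190 bp with 7 motifs at CTF1, a cytokine gene. SS18, known as a fusion partner in synovial sarcoma, had peaks of 1134 and 294 bp. Its neuronal paralogue SS18L1 had peaks of 166 and 665 bp with 3 motifs in the wider one, within 1 kb of a start of PSMA7, a proteasome subunit gene.

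The BAF-only class held the gene with the most peaks and both genes without a promoter peak. ARID1A, a DNA-binding subunit often mutated in cancer, had 15 peaks in its window, the most of the 30 genes, with promoter peaks of 2000, 180, 1579 and 383 bp. The peak of 1579 bp, which covers the main start, held 6 motifs, and the peak of 2000 bp at an upstream start held 1. Its paralogue ARID1B, 434.8 kb long, had promoter peaks of 605, 429, 565 and 1299 bp with 5 motifs. The widest of these was centred 244373 bp downstream of the main start, at an internal start, and the remaining ARID1B window held 1 exonic and 1 intronic peak. Peaks were thus denser at ARID1A, with 15.17 per 100 kb of window against 1.35 at ARID1B and a median of 3.04 over the 30 genes.

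The DPF proteins carry PHD fingers that read histone acetylation and replace each other in BAF. DPF2, the member found in most cells, had only narrow promoter peaks of 110 and 37 bp, both below the size of the sheared fragments, and no motif in them. DPF1, known from neurons, had 1 peak of 323 bp with 2 motifs, both on the other strand. DPF3, known from heart and muscle, had no peak within 13219 bp of its start but had 3 peaks in its introns. BCL11B, a zinc finger transcription factor of T cells and neurons that copurifies with BAF, had no peak in its window, and the nearest peak was 208714 bp from its start.

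G4 motifs were present near the starts of the 2 genes without a promoter peak as well. DPF3 had 2 motifs and BCL11B 3 within 1 kb of the main start, and these are given with the G runs in capitals to set beside those inside peaks.
DPF3, chr14:73360150-73360181, minus strand: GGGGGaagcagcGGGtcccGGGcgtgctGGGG
DPF3, chr14:73360302-73360326, plus strand: GGGGcGGGGGccgcGGGctcGGGGG
BCL11B, chr14:99738397-99738423, plus strand: GGGcccGGGGGGagcGGGGcggaGGGG
BCL11B, chr14:99738836-99738862, plus strand: GGGaGGGGGttGGGGGGGGccactGGG
BCL11B, chr14:99739045-99739073, plus strand: GGGttGGGGtcgacatGGGagttGGGGGG

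All 4 PBAF-only genes had a promoter peak. ARID2, which holds the place of ARID1A in PBAF, had promoter peaks of 853 and 538 bp, the narrower of them over the start with 3 motifs, and 2 further peaks within 5 kb upstream. PBRM1, the polybromo protein that reads acetylated histones, had a peak of 684 bp with 4 motifs, all on the gene strand, which reached within 1 kb of the start of GNL3. BRD7, a bromodomain subunit, had 1 peak of 420 bp and 80.0% GC with 1 motif. PHF10, a PHD finger subunit, had promoter peaks of 195, 319 and 880 bp and no motif in any of them, although 9 motifs lay within 1 kb of its main start, the most of the 30 genes.

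The ncBAF-only genes likewise all had promoter peaks. BRD9, the bromodomain subunit that marks ncBAF, had a peak of 364 bp with 77.2% GC and no motif, within 1 kb of a start of TRIP13. BICRA, a scaffold of ncBAF, had peaks of 375 and 360 bp with 1 motif and 2 intronic peaks. BICRAL, its paralogue, had peaks of 298, 553 and 1783 bp. The widest BICRAL peak lay downstream of the start, in intron 1, and held all 7 motifs of the BICRAL promoter peaks, while the peak over the start held none.

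Intronic peaks, which touched no promoter window and no coding-transcript exon of the gene, numbered 27 and were found at 11 of the 30 genes (36.7%, interval 21.9 to 54.5%), against 21% of all coding genes. Longer genes have more room for them. Among coding genes within a factor of 2 of each subunit gene's length, the share with an intronic peak had a median of 26.7% over the 30 genes and ranged from 9.73 to 45.8%. The excess over all coding genes is thus smaller beside genes of like length, and 26.7% lies inside the interval of the subunit genes. Of CpG-rich coding genes, 25.4% had an intronic peak. Among genes with a promoter peak, the share was 35.7% of subunit genes (interval 20.7 to 54.2%) and 30.7% of coding genes.

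The intronic peaks were concentrated in a few genes. ARID1A had 7, ACTB 5, BCL7C 4, DPF3 3 and BICRA 2, and SMARCC1, ARID1B, PBRM1, PHF10, SS18L1 and BCL7A had 1 each. Of coding genes of similar length, 0.799% had as many intronic peaks as ARID1A, 0.744% as many as ACTB, 2.72% as many as BCL7C and 19.3% as many as DPF3. The counts of ACTB and BCL7C depend on long annotated transcripts. When only introns of the Ensembl canonical transcript counted, a rule chosen after seeing the data, both genes had 0, ARID1A still had 7 and DPF3 3, ARID1B rose from 1 to 3 and PBRM1 from 1 to 2, and the total was 21 intronic peaks at 9 genes.

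**Figure D2:**
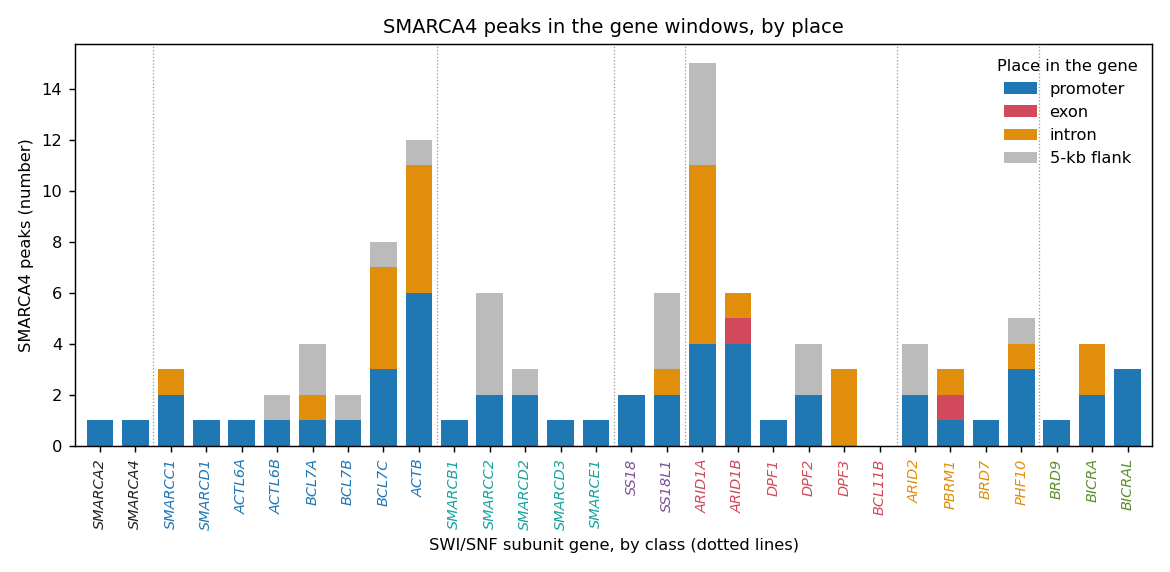
Number of SMARCA4 peaks in the window of each of the 30 genes (span plus 5 kb on each side), stacked by place in the gene, with genes grouped by subunit class between dotted lines. ARID1A (15 peaks) and ACTB (12) have the most, BCL11B has none, and DPF3 has intronic peaks only.

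Of the 7 intronic peaks of ARID1A, 5 were in intron 1, at 1634 to 27510 bp from the main start, and the others were in introns 4 and 12. The peaks of DPF3 were 270, 385 and 447 bp wide, with the first in intron 3 and the others in intron 1, between 67841 and 151897 bp from the only coding start. They are the only peaks of a subunit gene with no promoter peak, and the central 200 bp of each are given on the minus strand, which is the strand of DPF3. Capitals mark the GATA sequence (A or T, then GATA, then A or G) on either strand.
DPF3 intron 3, chr14:73208812-73209011: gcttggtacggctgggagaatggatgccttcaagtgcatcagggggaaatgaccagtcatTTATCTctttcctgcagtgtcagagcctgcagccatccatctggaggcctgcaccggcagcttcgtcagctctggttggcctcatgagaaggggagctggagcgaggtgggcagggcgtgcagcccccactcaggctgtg
DPF3 intron 1, chr14:73290056-73290255: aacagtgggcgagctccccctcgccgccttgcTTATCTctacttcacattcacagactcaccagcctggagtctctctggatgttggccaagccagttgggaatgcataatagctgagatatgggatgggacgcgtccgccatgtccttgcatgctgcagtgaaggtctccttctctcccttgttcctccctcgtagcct
DPF3 intron 1, chr14:73292868-73293067: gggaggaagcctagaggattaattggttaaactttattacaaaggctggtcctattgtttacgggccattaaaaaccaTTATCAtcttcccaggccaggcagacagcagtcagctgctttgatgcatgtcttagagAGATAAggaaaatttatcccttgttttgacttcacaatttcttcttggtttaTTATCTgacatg
All 3 centres hold at least 1 GATA match and no G4 motif lies in the 3 peaks, and of all peaks away from coding starts 58.8% have a GATA match in the central 200 bp and 10.3% hold a G4 motif, so the DPF3 peaks have the more common state in both respects.

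The remaining peaks were 2 exonic ones, at ARID1B and PBRM1, and 23 in the 5-kb flanks. Of the flank peaks, 14 lay at the promoter of another coding gene, including the 4 at MYL6 beside SMARCC2, 3 at MTG2 beside SS18L1 and 2 at TIGD3 beside DPF2. Most of the flank peaks can therefore be counted for a neighbouring gene as well. The 9 others included 3 at ARID1A, 2 at ARID2, 2 at BCL7A, 1 of 972 bp upstream of BCL7B, and 1 of 522 bp downstream of ACTB.

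The width of the 53 promoter peaks of the subunit genes compared with other genes in a way that depended on the settings. Their median was 420 bp, with a range from 36 to 2620 bp, and the median of all 11791 coding promoter peaks was 421 bp. Peaks of at least 1000 bp made up 20.8% of them (11 peaks, interval 12 to 33.5%) and 10.7% of all coding promoter peaks, and peaks of 600 to under 1000 bp made up 9.43% (interval 4.1 to 20.3%) and 20.5%. In these classes the subunit peaks thus had more weight at the wide end and less just below it. This rests on 11 and 5 peaks, and some of the 11 belong to the same gene. A width is that of a region found in at least 2 of the 3 replicates and need not be the extent of a peak in any replicate. The narrowest of all coding promoter peaks was 1 bp. The medians were further apart with peaks of at least 200 bp (554 and 491 bp), 1 kb upstream only (529 and 460 bp), 500 bp on either side (534 and 447 bp) and the start of the longest coding sequence (474 and 435 bp). They were 420 and 405 bp with 2 kb on either side. With assignment by midpoint the order turned, with 410 bp for subunit peaks and 419 bp for all. Peaks narrower than 200 bp made up 17% and 15.7%. The widest promoter peak per gene had a median of 593 bp over the 28 genes and 533 bp over all coding genes with one.

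A G4 motif lay inside 26 of the 53 promoter peaks (49.1%, interval 36.1 to 62.1%), against 41.6% of all coding promoter peaks, a share inside the interval. In the central 200 bp alone a motif lay in 13 of the 53, against 24.4% of all coding promoter peaks. After merging peaks up to 500 bp apart a motif lay in 25 of 36 subunit peaks, against 50.8% of all coding ones. With peaks of at least 200 bp it was 25 of 44, against 46.7%. With loops of up to 12 bases it was 33 of 53, against 57.2%, and intervals were not computed for these settings. The distance between subunit and all coding promoter peaks thus depended on the setting. It was widest after merging and smallest in the central 200 bp. The 54 motifs of the 53 peaks under the main definition fell in 20 genes, with 7 each at ARID1A and BICRAL and 5 each at ARID1B and ACTB. The share rose with the width of the peak, but a wider peak offers more sequence to search, and motifs per unit of length were not computed. The share was 6.25% of the 16 peaks under 300 bp, 57.1% of the 21 from 300 to under 600 bp, 60% of the 5 from 600 to under 1000 bp and 90.9% of the 11 wider ones, beside 20.2, 40.7, 59 and 77.7% of all coding promoter peaks. Subunit and other genes therefore showed the same order by width. Subunit promoter peaks with a motif had a median width of 600 bp and 67.7% GC, and those without had 297 bp and 59.2% GC.

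**Figure D3:**
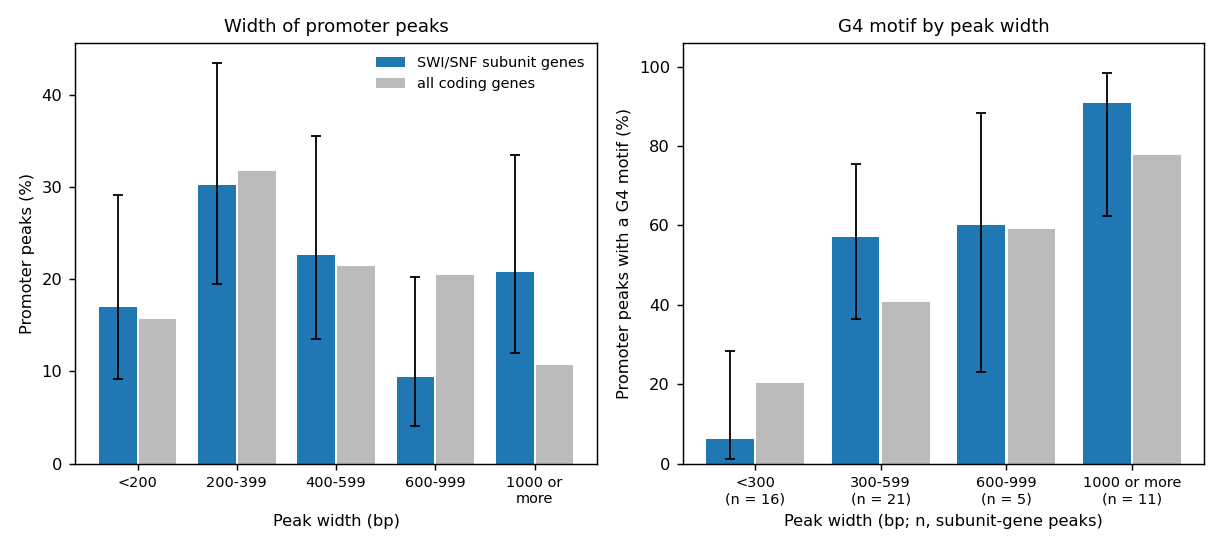
Left, percentage of promoter peaks in each width class (bp) for the subunit genes (53 peaks) and all coding genes (11791 peaks); right, percentage of the promoter peaks of each width class that hold a G4 motif, with bars from 0 and 95% Wilson intervals on the subunit genes. The widest class holds 20.8% of subunit peaks and 10.7% of all, and the share with a motif rises with width in both groups.

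The position of the motifs also followed that of other promoters. Of the 54 motifs, 32 had their G runs on the gene strand (59.3%, interval 46 to 71.3%), against 54% over all coding genes, and 35 lay upstream of the nearest start (64.8%, interval 51.5 to 76.2%), against 59.7%. Every subunit gene had at least 1 motif within 1 kb of its main start, as did 68.6% of all and 80.8% of CpG-rich coding genes. There were 117 such motifs at the subunit genes, and 43 of these lay wholly inside a peak. At the 28 genes with a promoter peak this was 38.4% of 112 motifs (interval 29.9 to 47.6%), and at all coding genes with a promoter peak it was 39.8%. Most motifs near the starts of subunit genes were thus outside the peaks. The zone of 1 kb on either side is much wider than the median promoter peak of 420 bp. The share of the zone that peaks cover was not computed, so this does not show that peaks avoid motifs. Among genes with a promoter peak but no motif inside one, PHF10 with 9, BRD9 with 6, and ACTL6A and BCL7A with 5 each had the most motifs, whereas all 6 of ARID1A were inside.

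The motif count near a start did not set subunit genes with and without a peak apart. Over other genes the relation depended on CpG content. A promoter peak was present at 67.5% of CpG-rich coding genes with 0 motifs, 64.6% with 1 to 2, 60% with 3 to 5 and 60% with 6 or more, but over all coding genes the order was reversed, with 34.1, 51, 53.8 and 56.7%. The subunit genes had a median of 4 motifs and a range of 1 to 9, in which the 2 of DPF3 and the 3 of BCL11B fall.

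Short sequence motifs of transcription factors were sought on either strand within 200 bp around the middle of each peak, so that narrow and wide peaks could be compared. A match is a description of the sequence and not a binding site. The GATA sequence was found in 13.2% of the subunit promoter peaks and in 47.4% of the 38 subunit peaks away from coding starts (interval 32.5 to 62.7%), beside 14.2 and 58.8% over the whole list. The SP/KLF sequence GGGCGG went the other way, with 54.7% of subunit promoter peaks and 10.5% of the peaks away from starts, beside 54.9 and 12.3%. It can lie inside a G4 motif, so the counts are not independent. Promoter and distal peaks of the subunit genes thus differed from each other in the same direction as in the whole list. Over whole peaks GATA was in 26.4% of the subunit promoter peaks and 52.6% of those away from starts (interval 37.3 to 67.5%), beside 27.6 and 68.3%. The list value away from starts thus lay just outside the interval. Many of the 38 peaks came from a few genes, such as ARID1A with 7 intronic peaks and ACTB with 5. The interval treats the peaks as independent and is too narrow if they are not, so no difference is read from it.

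The other short motifs were counted in the same way. The YY1 sequence AAGATGGCG was in 3 of the 53 promoter peaks, those of SMARCC2, SMARCD1 and BICRAL (5.66%, interval 1.94 to 15.4%), and in 1.86% of all coding promoter peaks, but over whole peaks it was in 5.66 and 4.37%. CCAAT, the NF-Y sequence, was in 34.2% of the subunit peaks away from starts (interval 21.2 to 50.1%), against 19.9% of all such peaks, and in 20.8 and 18.2% of promoter peaks. Counted over whole peaks, CCAAT was in 50% of the subunit peaks away from starts (interval 34.8 to 65.2%) and 35.9% of all such peaks, and in 30.2 and 35.7% of promoter peaks. Away from starts the list value thus lay outside the subunit interval in the central 200 bp only, and the order in promoter peaks changed with the region counted. The interval has the same limit as for GATA, because ARID1A and ACTB gave several of the peaks. The AP-1 sequence (TGACTCA or TGAGTCA) was in 13.2% of the subunit peaks away from starts and 18.4% of all such peaks. In promoter peaks it was in 3.77 and 3.8%, or 11.3% (interval 5.29 to 22.6%) and 7.59% over whole peaks, and the ETS sequence CCGGAAGT in 1.89 and 4.06%, or 1.89% (interval 0.334 to 9.94%) and 7.24%. Both whole-list values lie inside the intervals of the subunit peaks. The E-box CACGTG, the CRE TGACGTCA and the NRF1 core GCATGCGC were in 0 of the 53 promoter peak centres (interval up to 6.76%), against 6.52, 1.7 and 2.71% of all coding promoter peaks. Over whole peaks they were in 9.43, 0 and 3.77% of subunit promoter peaks, against 13.9, 3.38 and 5.44%, counts too small to separate.

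**Figure D4:**
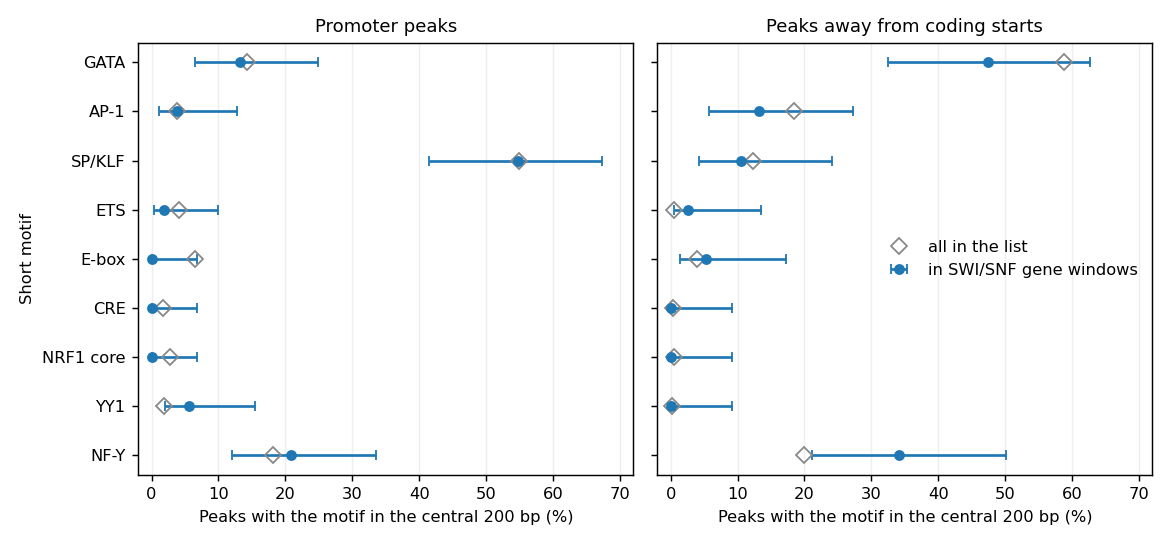
Percentage of peaks with each short motif in the central 200 bp, for promoter peaks (left) and peaks away from coding starts (right); filled points with 95% Wilson intervals are the peaks of the subunit genes and open diamonds all such peaks of the list. GATA is found in 47.4% of the subunit peaks away from starts and 13.2% of the promoter peaks, and SP/KLF in 10.5 and 54.7%.

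Both genes without a promoter peak, DPF3 and BCL11B, encode subunits known mainly from other tissues. Of the 6 subunits known mainly from neurons, muscle, heart or T cells, 4 had a promoter peak (ACTL6B, DPF1, SMARCD3 and SS18L1; 66.7%, interval 30 to 90.3%), and of the 24 others all had one (interval 86.2 to 100%). These intervals overlap. The main starts of all 6 are CpG-rich, and their share is near the 63.3% of CpG-rich coding genes with a promoter peak. Expression was not measured in these data. The cell label was checked with markers in the same way. The erythroid genes GATA1, TAL1, KLF1, LMO2, NFE2, HBG1 and HBZ each had a promoter peak, as K562 has erythroid features, and CD3E, ALB, MYOD1, NEUROD1 and KRT5, markers of other cell types, had no peak in their windows.

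Other chromatin regulators, whose lists were also chosen with earlier results of these data known, were set beside these counts. Of 24 Polycomb genes all had a promoter peak (interval 86.2 to 100%), and of 16 remodeller ATPases outside SWI/SNF 11 had one (68.8%, interval 44.4 to 85.8%). Against 21% of all coding genes, an intronic peak was present at 5 of the 24 (20.8%, interval 9.24 to 40.5%) and at 5 of the 16 (31.2%, interval 14.2 to 55.6%). The promoter share of the subunit genes thus lay between those of these lists, and its interval overlaps both, while the intervals of the Polycomb genes and the other ATPases do not meet.

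**Figure D5:**
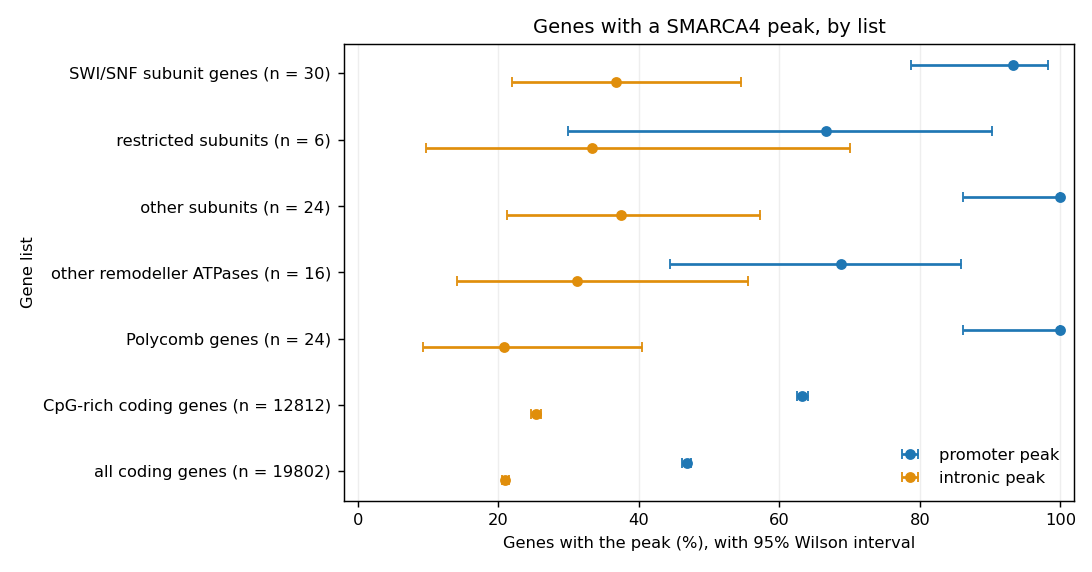
Percentage of genes with a promoter peak and with an intronic peak, by gene list, with 95% Wilson intervals and the number of genes in parentheses. SWI/SNF subunit genes reach 93.3% for promoter peaks, Polycomb genes 100%, other remodeller ATPases 68.8% and all coding genes 46.8%.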

How the data were processed

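Peaks came from SMARCA4 ChIP-seq of K562 cells (3 ChIP and 3 input libraries). The authors used cutadapt for trimming and BWA for alignment to hg19, marked and removed duplicates with Picard and SAMtools, called peaks per replicate with MACS2 at a q-value threshold against an input, and kept regions in at least 2 of 3 replicates with bedtools. The deposited unit is the bp coordinate of where a region starts and ends, with no score, so depth per region is unknown. Regions were compared with hg19 and GENCODE 44 lifted to that build in Python 3.11.15 with numpy 2.4.6, scipy 1.17.1, pysam 0.24.0 and matplotlib 3.10.9. Peaks were assigned per gene in the order promoter, exon, intron, flank. Matches of the G4 motif were non-overlapping and wholly inside the peak. All 30 genes are named, and other genes only as neighbours of their peaks or as markers. Interval and motif routines were tested on simulated data. The genes and lists were chosen with earlier results of these data known. Alternatives were a minimum width of 200 bp, merging of peaks up to 500 bp apart, other promoter windows, starts and flanks, assignment by midpoint, loops of up to 12 bases and the central 200 bp.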

Additional observations from a re-analysis of the deposited data

How the results depend on the processing

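Pairing each ChIP with an input, or leaving out 1 replicate at a time, was not possible from the list of regions, which already combines the replicates. The reads of the single libraries were not analysed, so no paired analysis was made. Of 63 alternative values, 58 planned and 5 chosen after seeing the data (those based on canonical transcripts), 47 stayed within the interval of the first value or, for counts, within 1.5 times of it. The number of subunit genes with a promoter peak was 26 to 28 throughout. BCL7A lost its call with 500 bp on either side, with 1 kb upstream only and with the start of the longest coding sequence, SMARCB1 with 1 kb upstream only, DPF1 with the start of the longest coding sequence, and DPF2 with peaks of at least 200 bp. Intronic peaks numbered 21 to 33, at 9 to 13 genes, and peaks in the windows 74 to 125.

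The median width of subunit promoter peaks, 420 bp, was 644 bp after merging peaks up to 500 bp apart, when that of all coding promoter peaks was 576 bp. In the central 200 bp a G4 motif was found in 13 of the 53 subunit peaks in place of 26. It was found in 25 of 36 subunit peaks after merging, and in 33 of 53 with loops of up to 12 bases. The causes were not tested. The share of all coding genes with a promoter peak, 46.8%, was 43.9% with peaks of at least 200 bp, 45% with 1 kb upstream only, 45.7% with 500 bp and 48.2% with 2 kb on either side, 43.2% with the start of the longest coding sequence and 44.3% with the canonical start. The share of all coding promoter peaks with a G4 motif, 41.6%, was 46.7% with peaks of at least 200 bp, 50.8% after merging, 43.9% with 1 kb upstream only, 44.5% with 500 bp and 38.7% with 2 kb on either side, 43% with the start of the longest coding sequence, 57.2% with loops of up to 12 bases and 24.4% in the central 200 bp.

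The list gives presence or absence of a region, so binding strength cannot be compared between genes, and absence of a region means only that the authors' threshold was not met in enough replicates. Which replicates support a region, the signal in the inputs and the expression of the genes were not analysed here.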
